A study of Rattus with 6 samples.

Results

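The 8 annexin genes described here, Anxa1, Anxa2, Anxa3, Anxa4, Anxa5, Anxa6, Anxa7 and Anxa11, encode members of a family of calcium-dependent membrane-binding proteins, several of which are carried by matrix vesicles. They were taken from the deposited table by gene name, from a list made with earlier results of these data known. All 8 of 8 were found among its 16690 genes and passed the filter on low values. Transcripts were measured as FPKM (fragments, scaled by gene length and library depth) in cultures of rat bone marrow mesenchymal stem cells (BMSC), adherent marrow stromal cells able to become bone, cartilage or fat cells.

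The 6 libraries came from Sprague Dawley rats tagged wild-type, 3 of them from rats in which chronic kidney disease (CKD) had been modelled and 3 from healthy rats. The cells were used at passages 3 to 5. How the disease was induced, and the age of the animals, are not given in the sources used here. The extract protocol names exosomes as the source of the RNA whereas the design text names the cells, so the measured RNA may be either. CKD replicate 1 carries the disease model tag of the controls and control replicate 2 that of CKD. Titles, library names and column codes put them in the groups used here, and CKD replicate 3 is numbered 4 in its title. The design text calls the samples of a group biological replicates, but no label ties a library to its own animal, and some library names share a start (CKD replicates 1 and 3, control replicates 1 and 2). The p-values here reflect only how far the libraries spread, and that spread may be technical.

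Annexins bind membranes that expose phosphatidylserine when calcium is present. Matrix vesicles, small vesicles that bud from bone-forming and cartilage cells and start mineral formation, are rich in annexins, among which Anxa5 and Anxa6 are the best described there. Related calcifying vesicles are studied in the vessel wall in CKD, and the title of the series concerns vesicles of these stem cells and vascular calcification. The comparison asked whether the transcripts of these proteins differed between cultures of diseased and of healthy animals.

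Depth recovered from the table was 34404037 to 46892613 fragments per library. The 10 stromal markers summed to 1890 to 2568 FPKM, with 0 of 8 tested called, against 2.07% of all genes tested. Of these 8, groups did not overlap for 2 higher and 1 lower in CKD, beside 27.8% of all genes tested. Itgb1 (CD29) was at 847 to 1204 FPKM. Thy1 (CD90) was at 505 to 572 FPKM in CKD and 590.4 to 801 in control libraries, without overlap, whereas Cd44 and Pdgfrb were higher in all 3 CKD libraries. Eng was at 10.8 to 21.8 FPKM in CKD libraries and control replicate 1 and at 83.4 and 88.8 in the other controls, Lepr was under 0.25 FPKM in every library, and Cd34, for which the cultures were described as negative, was at 1.20 FPKM or less. Summed haematopoietic, osteoblast, chondrocyte and endothelial markers overlapped between the groups, whereas adipocyte and granulocyte sums did not. The 18 haematopoietic and macrophage markers summed to 295, 3320 and 2233 FPKM in CKD replicates 1, 2 and 3 and to 405, 22.2 and 14.3 in control replicates 1, 2 and 3. By limma, 0 of the 14 tested were called, against 2.07% of all genes tested. All 14 estimates were higher in CKD, 9 with an unadjusted p under 0.05, against 22.1% of all genes tested in either direction. That shared direction was partly set by the filter on low values. Of the 18 markers, 15 and 16 were under 1 FPKM in control replicates 2 and 3, and 1 in each of CKD replicates 2 and 3. Markers could thus pass mainly through CKD libraries. In the authors' deposited table Cd74 was lower in CKD (log2 fold change -0.75). C1qc was at 0 in control replicate 2, and Adgre1, C1qb and C1qc were at 0 in control replicate 3. Ptprc, which encodes CD45, a marker for which the cultures were also described as negative, was at 0.783, 15.5 and 11.4 FPKM in the CKD libraries and 1.33, 0.0140 and 0.0204 in the controls. Summed osteoblast markers (49.5 and 31.4 FPKM) were higher in both first replicates than in the other 4 libraries (6.03 to 12.8). Alpl alone gave 40.7 and 19.4 FPKM of those sums in CKD replicate 1 and control replicate 1. Of the 5 adipocyte markers, 3 were in the deposited table. They summed to 6.68, 97.2 and 95.4 FPKM in CKD replicates 1, 2 and 3 and to 2.33 to 4.33 in the controls. Fabp4 was the largest of them in CKD. The authors' mean normalized counts in CKD were 1598 for Fabp4, 215 for Pparg and 2.73 for Plin1, against 66.1, 60.6 and 1.28 in control. Chondrocyte markers were at 57.2 in CKD replicate 1 and at 3.15 to 12.5 elsewhere. Endothelial and granulocyte markers summed to at most 2.78 and 0.407 FPKM. The granulocyte sums covered only 2 of 7 listed genes. All were near 0, at 0.0974 to 0.407 FPKM in CKD and 0 to 0.0891 in control libraries. The first replicate of each group thus stood apart from the other members of its group, and fits without them are given for the annexins and for named genes of annexin-related lists whose calls they changed.

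Annexin transcripts were abundant, and their order was nearly the same in every library. By mean FPKM over the 6 libraries, Anxa2 ranked 109th, Anxa1 146th, Anxa5 294th, Anxa6 471st, Anxa4 704th, Anxa7 1999th, Anxa11 2399th and Anxa3 7626th among the 16690 genes. Their order of level was kept in 5 of 6 libraries, and only CKD replicate 1 had more Anxa1 than Anxa2. Across libraries the ranges of Anxa2 and Anxa1 overlapped, as did those of Anxa7 and Anxa11, although Anxa7 was the higher of that pair in 6 of 6 libraries. The remaining neighbours in the order kept separate ranges. Together the 8 genes summed to 1444 ± 54.5 FPKM in CKD and 1393 ± 38.9 FPKM in control libraries (SD, n = 3 each), and the library sums overlapped. They made up 0.326 to 0.349% of all FPKM in a library. Anxa2 gave 30.3 to 40.7% of the annexin sum and Anxa1 24.2 to 34.8%, against 0.0772 to 0.427% for Anxa3.

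**Figure D1:**
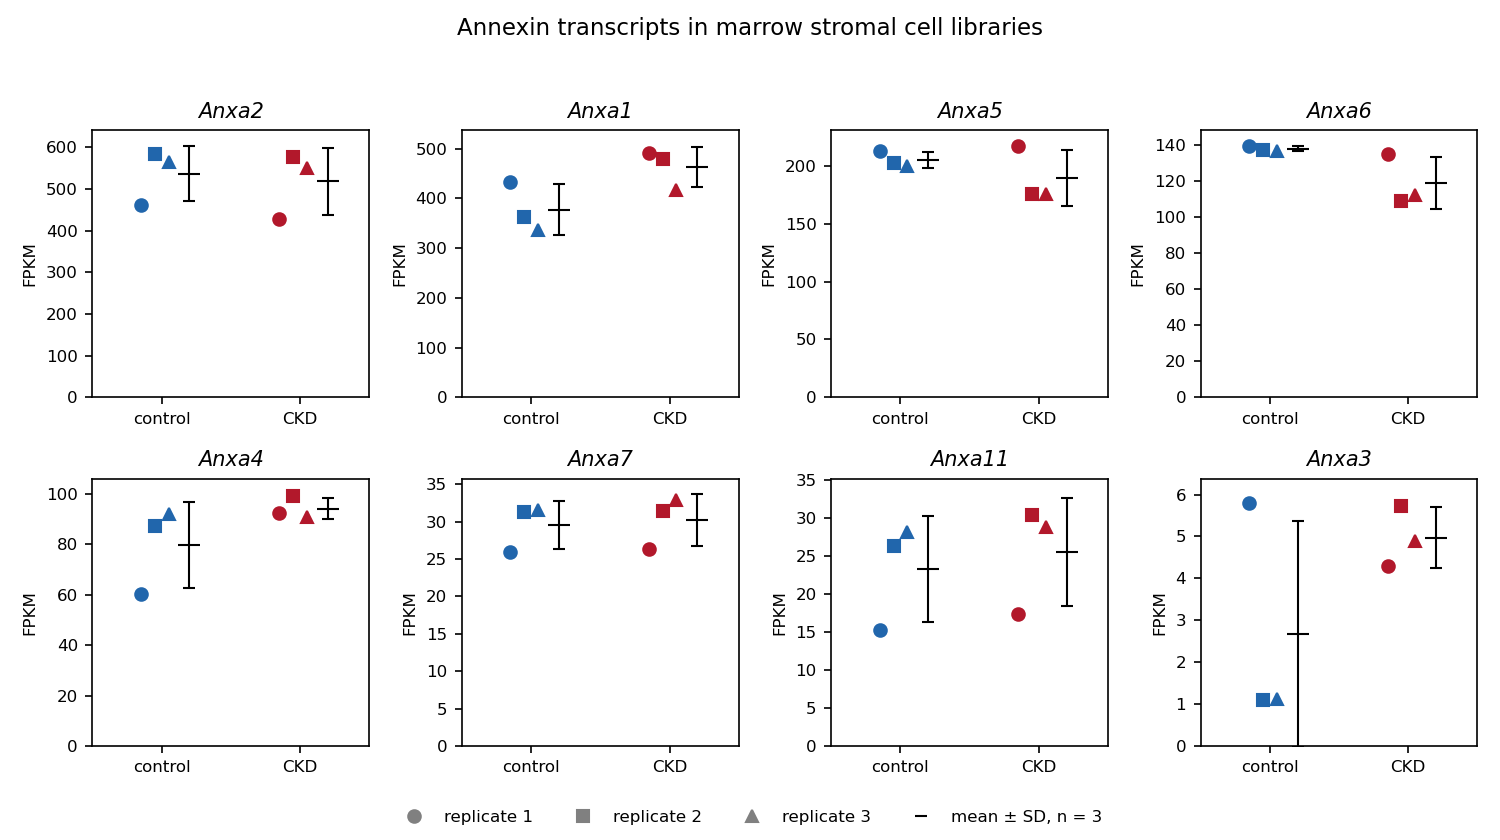
FPKM of the 8 annexin genes, 1 panel each with a linear axis from 0. Each point is a library (circle, square and triangle for replicates 1, 2 and 3) and the black mark is the mean ± SD (n = 3), cut off at 0 for control Anxa3, where replicate 1 is at 5.79 and the other controls are at 1.11 and 1.12 FPKM.

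None of the 8 annexins was called different between CKD and control by limma on log2(FPKM + 1), with adjusted p-values of 0.256 to 0.914. The same fit called 2.07% of the 10638 genes tested at an adjusted p under 0.05. No annexin had an unadjusted p under 0.05 either, against 22.1% of all genes tested. Limma-voom on the recovered fragments also called none of the 8, against 0.921% of all genes. In the authors' deposited table the lowest q-value of an annexin was 0.231, for Anxa6, while 11.3% of its genes had a q under 0.05. The estimated differences, on the log2(FPKM + 1) scale as CKD minus control, were positive for 5 members and negative for 3, with a median of 0.083 beside 0.053 over all genes tested. Their median size without sign was 0.18, beside 0.17 over all genes. Groups did not overlap for 1 of 8 annexins, Anxa6, against 27.8% of all genes tested.

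**Figure D2:**
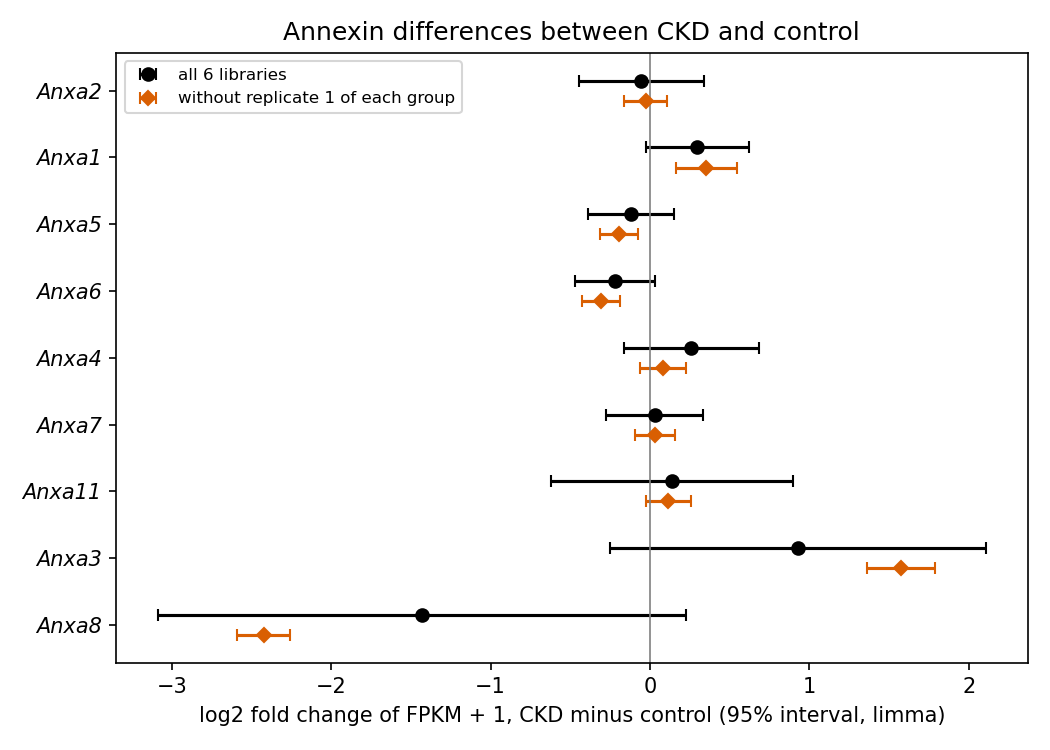
Difference of each annexin, Anxa8 included, between CKD and control on the log2(FPKM + 1) scale, with 95% intervals from limma, for all 6 libraries (black) and without replicate 1 of each group (orange). All intervals over 6 libraries span 0, and without the first replicates those of Anxa1 and Anxa3 lie above 0 and those of Anxa5, Anxa6 and Anxa8 below it.

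Anxa5, the annexin known for its tight binding to exposed phosphatidylserine, measured 217, 176 and 175 FPKM in CKD replicates 1, 2 and 3 and 212, 202 and 199.6 FPKM in control replicates 1, 2 and 3. CKD replicate 1 was the highest of the 6 libraries and the other CKD libraries were the lowest, so the groups overlapped. The means were 189 ± 24.0 and 205 ± 6.80 FPKM (SD, n = 3 each), a difference of -0.12 ± 0.11 (SE) on the log2 scale, with a 95% interval of -0.39 to 0.15 (limma, adjusted p = 0.555). Anxa5 (NCBI Gene 25673) thus had a difference smaller than its spread between CKD libraries.

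Anxa6, a larger annexin with a duplicated core that also binds membranes of matrix vesicles, measured 135, 109 and 112 FPKM in the CKD libraries and 139.7, 138 and 137 FPKM in the controls. All 3 CKD libraries were below all 3 controls, but CKD replicate 1 lay close to the controls. The control libraries varied little, with 138 ± 1.37 FPKM against 119 ± 14.3 in CKD (SD, n = 3 each). The difference was -0.22 ± 0.10 (SE), with a 95% interval of -0.47 to 0.033 (limma, adjusted p = 0.276). The gene (NCBI Gene 79125) was 1 of 3 annexins with a negative estimate.

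Anxa2 forms a complex with S100a10 at the plasma membrane, where it takes part in plasminogen activation and membrane traffic. It measured 428, 576 and 551 FPKM in the CKD libraries and 463, 584 and 564 FPKM in the controls. Both first replicates were the low ones, and the groups overlapped. The means of Anxa2 (NCBI Gene 56611) were 518 ± 79.5 and 537 ± 65.2 FPKM (SD, n = 3 each). The difference was -0.056 ± 0.16 (SE), with a 95% interval of -0.45 to 0.34 (limma, adjusted p = 0.868).

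Anxa1, known for limiting inflammation through formyl peptide receptors, measured 492, 479 and 417 FPKM in the CKD libraries and 434, 363 and 336 FPKM in the controls. The highest control exceeded the lowest CKD library, so the groups overlapped by that pair. The means of Anxa1 (NCBI Gene 25380) were 463 ± 40.3 and 378 ± 50.6 FPKM (SD, n = 3 each). The difference was 0.30 ± 0.13 (SE), with a 95% interval of -0.027 to 0.62 (limma, adjusted p = 0.256), the lowest adjusted p of the 8.

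Anxa4, abundant in secretory epithelia, measured 92.5, 99.1 and 91.0 FPKM in the CKD libraries and 60.2, 87.4 and 91.8 FPKM in the controls. Control replicate 1 was alone at the low end, and the other 5 libraries lay close together. The means of Anxa4 (NCBI Gene 79124) were 94.2 ± 4.31 and 79.8 ± 17.1 FPKM (SD, n = 3 each), with a difference of 0.26 ± 0.17 (SE), a 95% interval of -0.16 to 0.68 and an adjusted p of 0.418 (limma). Without control replicate 1 the difference was 0.070 (adjusted p = 0.528), and without both first replicates it was 0.083.

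Anxa3, the least abundant member, measured 4.29, 5.74 and 4.89 FPKM in the CKD libraries and 5.79, 1.11 and 1.12 FPKM in the controls. Control replicate 1 was the highest of all 6 libraries and the other controls were the lowest. Between 165 and 1040 fragments lay behind each value of Anxa3 (NCBI Gene 25291), so the contrast among controls was not set by counting error. The means were 4.97 ± 0.727 and 2.67 ± 2.70 FPKM (SD, n = 3 each), and the difference was 0.93 ± 0.48 (SE), with a 95% interval of -0.25 to 2.11 (limma, adjusted p = 0.315). The pseudocount of 1 FPKM understates differences at this level. The first CKD library had 0.741 times the FPKM of the first control, whereas the mean of CKD replicates 2 and 3 was 4.76 times that of control replicates 2 and 3.

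Anxa7 and Anxa11 are the annexins with long, flexible amino-terminal tails and are known to bind Sri and the penta-EF-hand protein Pdcd6, respectively. Anxa7 (NCBI Gene 155423) measured 26.3, 31.5 and 32.8 FPKM in the CKD libraries and 25.9, 31.3 and 31.5 FPKM in the controls. Its difference was 0.029 ± 0.12 (SE), with a 95% interval of -0.28 to 0.33 (limma, adjusted p = 0.914), and the sign of the estimate turned under both other scalings of the libraries. Anxa11 (NCBI Gene 290527) measured 17.4, 30.4 and 28.9 FPKM in the CKD libraries and 15.3, 26.4 and 28.3 FPKM in the controls. Both genes were lowest in the 2 first replicates, and for Anxa11 those libraries lay far below the other 4. The difference of Anxa11 was 0.14 ± 0.31 (SE), with a 95% interval of -0.62 to 0.90 (limma, adjusted p = 0.829).

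The annexins followed the libraries in several ways. Anxa2, Anxa7 and Anxa11 were lower in both first replicates than in the other 4 libraries, whereas Anxa5 was higher in them than in the other libraries of any group. Without both first replicates, 4 of 8 annexins were called by limma, Anxa1 and Anxa3 higher and Anxa5 and Anxa6 lower in CKD, and 55.0% of all genes tested were called. The adjusted p-values in that fit of 2 against 2 libraries were 0.00917 for Anxa1 (difference 0.35), 1.46e-05 for Anxa3 (1.57), 0.0138 for Anxa5 (-0.19) and 0.00197 for Anxa6 (-0.31). The share of annexins was close to that of all genes, and the libraries left in that fit were the ones with the most macrophage marker RNA in CKD and the least in control. Limma-voom with sample quality weights called the same 4 genes, against 56.2% of all genes, with adjusted p-values of 0.0136, 0.000465, 0.0191 and 0.00318. Without CKD replicate 1 alone, 1 annexin was called, Anxa6 (-0.32, adjusted p = 0.0383), against 15.1% of all genes. Without control replicate 1 alone, 1 annexin was called, Anxa3 (1.49, adjusted p = 0.00879), against 12.0% of all genes.

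With the mean of the haematopoietic markers as a covariate, the estimates of Anxa3 and Anxa5 were -0.0034 and 0.017, and no annexin was called. The part of macrophage RNA, or of any other cell type, in the annexin values was not tested. In bulk libraries, fewer cells of a type and less RNA per cell cannot be told apart. With groups set by the disease model tag in place of the titles, no annexin was called (adjusted p = 0.682 to 0.993).

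Of other annexin genes, Anxa8, which belongs to the family but not to the 8 members, measured 9.64, 1.09 and 1.16 FPKM in the CKD libraries and 6.25, 10.5 and 10.3 FPKM in the controls. CKD replicate 1 was at the level of the controls, and the other CKD libraries were far below. The difference of Anxa8 was -1.43 ± 0.67 (SE; limma, adjusted p = 0.277), and without CKD replicate 1 it was -2.21 (adjusted p = 0.0103) and without both first replicates -2.42 (adjusted p = 9.50e-07). Those 2 fits called 15.1% and 55.0% of all genes tested, and both leave out the CKD library at the level of the controls. Anxa9 had 0 to 7 fragments in each library. Anxa10 and Anxa13 were not found by name in the deposited table.

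**Figure D3:**
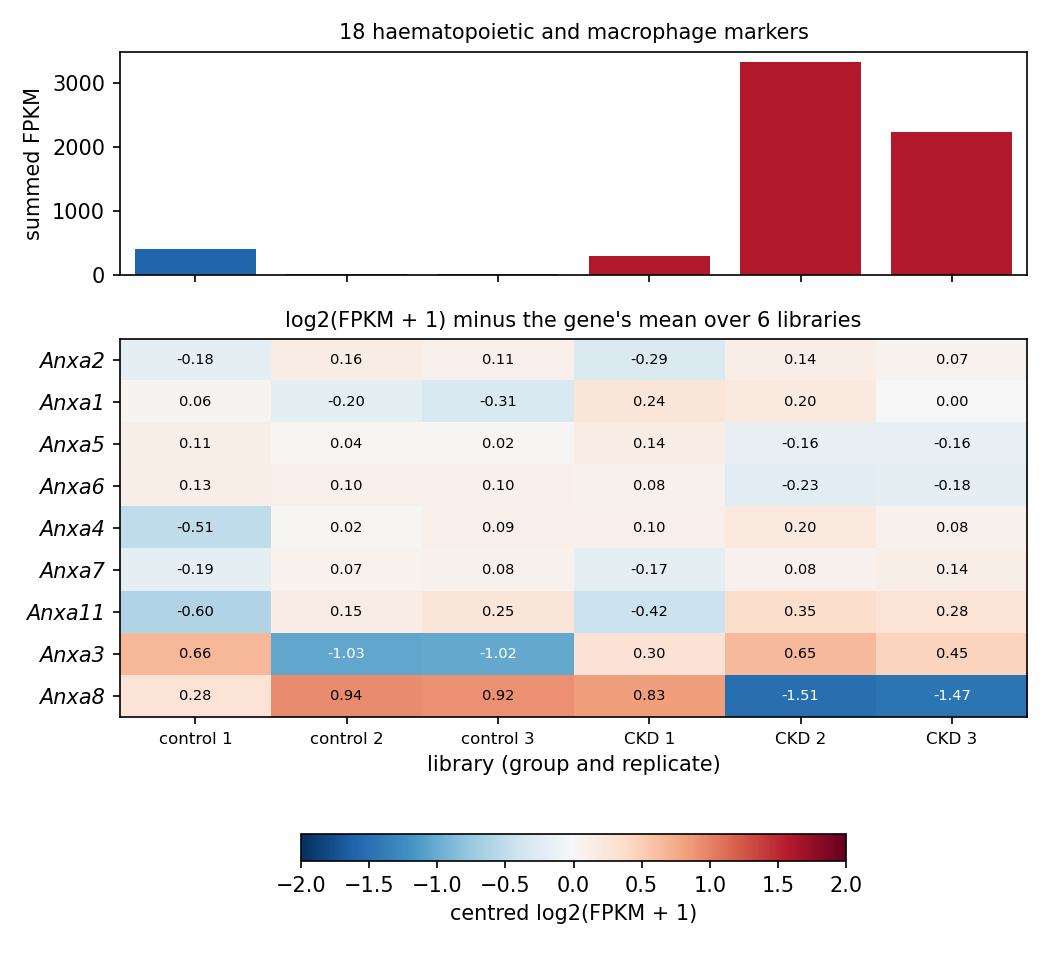
Bars show the summed FPKM of 18 haematopoietic and macrophage markers in each library, highest in CKD replicates 2 and 3 (3320 and 2233). Coloured cells show log2(FPKM + 1) of each annexin and Anxa8 minus its mean over the 6 libraries, with Anxa11 low in both first replicates, Anxa3 low in control replicates 2 and 3, and Anxa8 low in CKD replicates 2 and 3.

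The list of annexin partners and ligands held 17 genes, of which 13 were tested. None was called higher and 1, S100b, was called lower in CKD, against 2.07% of all genes in either direction, with a median difference over the list of -0.15. S100b, a small calcium-binding protein, fell from 16.9 ± 1.20 FPKM in control to 8.08 ± 1.70 FPKM in CKD (SD, n = 3 each). Its values were 6.17, 8.65 and 9.41 FPKM in the CKD libraries and 15.5, 17.4 and 17.7 FPKM in the controls, without overlap. The difference was -0.99 ± 0.16 (SE; limma, adjusted p = 0.0462).

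Direct partners of the abundant annexins were present at high levels. S100a10, which pairs with Anxa2, measured 559, 369 and 326 FPKM in the CKD libraries and 427, 432 and 384 FPKM in the controls, a difference of -0.025 ± 0.21 (SE; limma, adjusted p = 0.957). The ratio of Anxa2 to S100a10 FPKM was 0.765, 1.56 and 1.69 in CKD and 1.08, 1.35 and 1.47 in control libraries, so CKD replicate 1 had less Anxa2 than S100a10 transcript and the other 5 libraries had more. S100a11, which binds Anxa1, measured 1085, 1003 and 1010.0 FPKM in the CKD libraries and 772, 745 and 777 FPKM in the controls. These groups did not overlap, and the difference of 0.43 ± 0.086 (SE) did not pass the threshold (limma, adjusted p = 0.0730).

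S100a6, another S100 protein that binds annexins, measured 900.2, 1006 and 993 FPKM in the CKD libraries and 1115, 1757 and 1769 FPKM in the controls. The groups did not overlap, and the difference was -0.65 ± 0.20 (SE; limma, adjusted p = 0.153). Sri, the partner of Anxa7, measured 42.5, 46.2 and 47.1 FPKM in CKD and 49.5, 61.4 and 57.9 FPKM in control libraries, also without overlap (difference -0.30 ± 0.10 (SE), limma, adjusted p = 0.174). Pdcd6, the partner of Anxa11, measured 37.0, 49.5 and 44.5 FPKM in CKD and 40.2, 42.2 and 42.8 FPKM in control libraries (0.054 ± 0.12 (SE), limma, adjusted p = 0.822). Without both first replicates S100a11 (0.40, adjusted p = 0.00116), S100a6 (-0.82, 4.53e-05) and Sri (-0.35, 0.00171) were called by limma, as were 55.0% of all genes. In the authors' deposited table, 4 of 15 partners had a q under 0.05, against 11.3% of all genes, namely S100b (2.28e-07), S100a11 (0.00783), S100a6 (0.00862) and Sri (0.0180). Of the 13 partners tested, 5 had groups that did not overlap, 2 higher and 3 lower in CKD, beside the 27.8% of all genes tested.

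Of 19 genes of matrix vesicle mineralization, 15 were tested, 1 was called higher (Bmp1) and none lower in CKD, against 2.07% of all genes, with a median difference of 0.085. Bmp1, a protease that processes procollagen, rose from 15.8 ± 0.970 FPKM in control to 26.1 ± 2.27 FPKM in CKD (SD, n = 3 each). Its values were 28.7, 24.6 and 24.9 FPKM in the CKD libraries and 16.4, 14.7 and 16.3 FPKM in the controls, a difference of 0.69 ± 0.091 (SE; limma, adjusted p = 0.0399). The enzymes and transporters that set pyrophosphate and phosphate around vesicles did not pass the threshold. Alpl, the phosphatase that removes pyrophosphate, measured 40.7, 7.54 and 9.22 FPKM in CKD and 19.4, 3.99 and 3.56 FPKM in control libraries (0.99 ± 0.84 (SE), limma, adjusted p = 0.524). Its high values were those of both first replicates, as for Enpp1, which makes pyrophosphate, with 78.6, 20.2 and 23.6 FPKM in CKD and 54.4, 24.0 and 24.1 FPKM in control libraries (0.085 ± 0.60 (SE), limma, adjusted p = 0.949).

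Ankh, a pyrophosphate exporter, measured 74.6, 45.5 and 51.5 FPKM in CKD and 47.3, 56.6 and 55.1 FPKM in control libraries, and its groups overlapped (limma, adjusted p = 0.846). The phosphate transporters Slc20a1 and Slc20a2 had differences of -0.18 and -0.37 (limma, adjusted p = 0.630 and 0.339). Of the genes under the filter on low values, Phospho1, a phosphatase that acts inside matrix vesicles, measured 0.700, 2.98 and 3.05 FPKM in CKD and 0.608, 0.539 and 0.496 FPKM in control libraries. Smpd3, a sphingomyelinase with a part in vesicle release and bone mineral, measured 0.909, 0.988 and 1.28 FPKM in CKD and 0.231, 0.260 and 0.216 FPKM in control libraries. Without both first replicates Alpl (0.97, adjusted p = 0.000261), Ankh (-0.20, 0.0418), Slc20a1 (-0.27, 0.00411) and Slc20a2 (-0.60, 0.000887) were called by limma, in the fit that called 55.0% of all genes. Phospho1 and Smpd3 each had groups that did not overlap, beside 27.8% of all genes tested. For Phospho1, CKD replicate 1 (0.700 FPKM) lay close to the highest control (0.608). In the fit without a filter, which called 133 of 16690 genes, Smpd3 was higher in CKD by 0.73 (limma, adjusted p = 0.0356). In the authors' deposited table, 6 of the 19 genes had a q under 0.05, against 11.3% of all genes. These were Smpd3 (2.26e-13), Bmp1 (0.000213), Phospho1 (0.0141) and Mmp13 (0.0355), higher in CKD, and Mmp2 (0.00175) and Itga1 (0.0113), lower in CKD. The groups overlapped for Mmp13 (limma, adjusted p = 0.229), which was lower in CKD replicate 1 (0.488 FPKM) than in control replicate 1 (1.02). For Itga1 they did not overlap, but CKD replicate 1 (21.8 FPKM) lay close to control replicate 1 (22.1; limma, adjusted p = 0.174).

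Collagens that annexins of matrix vesicles can bind showed no called difference. Of 4 such genes, Col1a1 and Col1a2 were tested, with adjusted p-values of 0.870 and 0.803 (limma), and Col10a1 was at 0.346 FPKM or less. Col2a1 was not found by name in the deposited table. Of the 2 collagens tested, none had an unadjusted p under 0.05, against 22.1% of all genes tested. None was called by limma, against 2.07%, or by limma-voom, against 0.921%. Col1a1 measured 5299, 2712 and 2620 FPKM in CKD and 5881, 2858 and 2999.8 FPKM in control libraries. Col1a2 measured 4328, 2124 and 2089 FPKM in CKD and 4390, 2498 and 2589 FPKM in control libraries. Both were highest in the first replicates, and the SE of their differences was 0.40 and 0.37. Without both first replicates Col1a2 was called lower (-0.27, limma, adjusted p = 0.0114), in the fit that called 55.0% of all genes.

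The list of phosphatidylserine handling, the lipid that annexins bind, held scramblases, which expose it, flippases, which return it to the inner leaflet, and enzymes that make it or convert it (Ptdss1, Ptdss2 and Pisd). Of its 14 genes 13 were tested, with 1 called higher and none lower in CKD, against 2.07% of all genes, and a median difference of -0.069. Plscr2, of the phospholipid scramblase family, rose from 0.906 ± 0.250 FPKM in control to 6.57 ± 0.855 FPKM in CKD (SD, n = 3 each). Its values were 7.15, 5.58 and 6.97 FPKM in the CKD libraries and 1.18, 0.858 and 0.683 FPKM in the controls. All 3 CKD libraries, the first replicate among them, were far above the controls, and the difference was 1.99 ± 0.14 (SE; limma, adjusted p = 0.00983). At an unadjusted p under 0.05, 2 of the 13 genes were higher and 4 lower, against 22.1% of all genes tested in either direction. In the authors' deposited table, 5 of the 14 had a q under 0.05, against 11.3% of all genes. Plscr2 (5.83e-19) and Plscr1 (0.0177) were higher in CKD, whereas Plscr4 (0.00368), Pisd (0.0123) and Ano6 (0.0254) were lower. Scramblases thus did not move in 1 direction.

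Annexins also act in the repair of torn plasma membrane, and 13 of 15 genes of that process were tested. None was called higher and 1, Ahnak, was called lower, against 2.07% of all genes, with a median difference of -0.17. Ahnak, a very large scaffold protein that binds the complex of Anxa2 and S100a10, fell from 131 ± 11.6 FPKM in control to 76.7 ± 4.11 FPKM in CKD (SD, n = 3 each). Its values were 78.2, 72.0 and 79.8 FPKM in the CKD libraries and 118, 136 and 139 FPKM in the controls, a difference of -0.76 ± 0.096 (SE; limma, adjusted p = 0.0355). In the authors' deposited table, 3 of 13 genes of this list had a q under 0.05, against 11.3% of all genes.

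**Figure D4:**
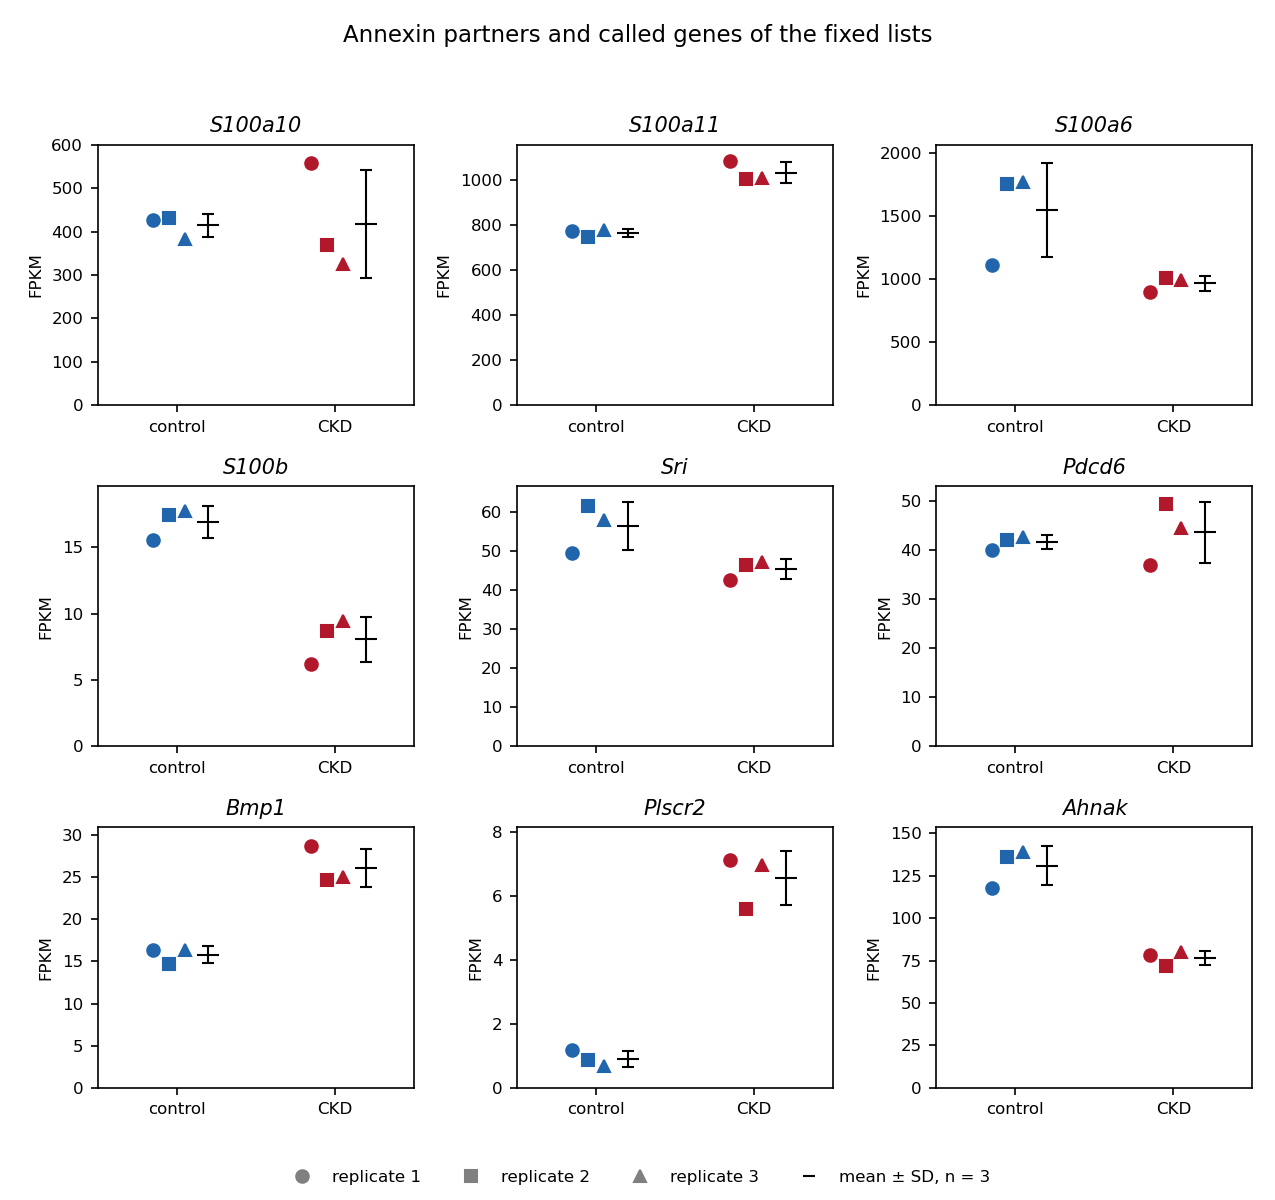
FPKM of annexin partners and of the called genes Bmp1, Plscr2 and Ahnak, 1 panel each with a linear axis from 0, a point for each library and the mean ± SD (n = 3) in black. S100b, S100a6, Sri and Ahnak lie lower and S100a11, Bmp1 and Plscr2 higher in all 3 CKD libraries than in all 3 controls, and S100a10 and Pdcd6 overlap.

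The calls of S100b, Bmp1, Ahnak and Plscr2 were lost in some fits without a single library, while their differences moved little. Over the 6 such fits the difference was -1.10 to -0.83 for S100b, 0.62 to 0.73 for Bmp1, -0.84 to -0.72 for Ahnak and 1.91 to 2.09 for Plscr2. Plscr2 was called in 12 of 18 alternatives, Ahnak in 8, Bmp1 in 7 and S100b in 6. Without CKD replicate 2 the adjusted p-values (limma) were 0.199 for S100b, 0.161 for Bmp1, 0.180 for Ahnak and 0.0410 for Plscr2. Without CKD replicate 3 they were 0.194, 0.210, 0.207 and 0.0992 in the same order. Without control replicate 2 they were 0.188, 0.153, 0.153 and 0.0859, and without control replicate 3 they were 0.220, 0.197, 0.197 and 0.0852. These 4 fits called 6 to 9 genes in all. All 4 genes were called without CKD replicate 1 and also without control replicate 1. With the replicates grouped by the disease model tag none of the 4 was called (adjusted p = 0.824 to 0.959), with differences of -0.23 for Ahnak, 0.073 for Bmp1, 0.57 for Plscr2 and -0.086 for S100b. With the haematopoietic markers as a covariate their adjusted p-values were 0.104 to 0.186, and the differences were -0.62 for Ahnak, 0.77 for Bmp1, 1.96 for Plscr2 and -1.18 for S100b. That fit called 18 genes in all.

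For the 3 annexins that varied most between libraries, the genes of most similar profile were found by the Euclidean distance between centred log2(FPKM + 1) values over the 6 libraries, as a description. Anxa3 was nearest to Tcn2, a vitamin B12 carrier (distance 0.293), Ghr, the growth hormone receptor (0.360), and Emx2, a homeobox factor (0.437). Ghr measured 3.89, 3.89 and 3.31 FPKM in the CKD libraries and 4.27, 0.456 and 0.453 FPKM in the controls, so it was also low in control replicates 2 and 3 alone. Anxa11 was nearest to Sipa1l2 (0.0668), Camk1, a calmodulin-dependent kinase (0.127), and Atp1b1, a subunit of the sodium pump (0.156), which were low in both first replicates too. Atp1b1 measured 38.4, 66.0 and 60.7 FPKM in CKD and 32.2, 54.9 and 53.7 FPKM in control libraries. Anxa4 was nearest to Sptssa (0.0837), a subunit of serine palmitoyltransferase, Hmgn5 (0.0909), a nucleosome-binding protein, and Siva1 (0.121), and these were lowest in control replicate 1.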

How the data were processed

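Total RNA was made into poly-A selected, stranded libraries, per the labels' protocols. The submitters' processing notes name the aligner HISAT2 2.1.0, the counter HTSeq 0.11.2, SAMtools 1.9, DESeq 1.34.1, DESeq2 1.22.2 and FastQC 0.11.9, and the build mRatBN7.2, without settings. Per the file headers, the authors deposited 1 table that gives FPKM for each library and, for the group comparison, mean normalized counts, fold and log2 fold changes, p-values and q-values, written with decimal commas. From FPKM and group means, whole fragments were recovered, for depth and for limma-voom.

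Log2(FPKM + 1) values of CKD and control libraries were fitted in limma 3.58.1 (R 4.3.3), with a trend of variance on mean, no covariate, a two-sided test and Benjamini-Hochberg adjustment over all genes tested, at 0.05. Genes with at least 1 FPKM in 3 or more libraries were tested (10638), and 6052 were left out. The fit was also run on simulated counts in which each gene varied on its own. That run held no shift shared by the first replicates, so it does not show how the fit behaves with one. Alternatives changed the pseudocount (0.1), filter, scaling, value tested, libraries, groups and covariate. The members, gene lists and tests were chosen with earlier results of these data known. Named genes are the annexins, fixed partners and mineralization genes whatever their p, up to 4 called members of each list, and the 3 nearest profiles of the 3 most variable annexins. Sequences and coordinates were not used here.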

Additional observations from a re-analysis of the deposited data

How the results depend on the processing

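Over 18 alternatives, Anxa4 and Anxa6 kept the direction of their difference, as did Anxa1, and no alternative turned the direction of a called gene. Leaving out 1 library at a time gave log2 differences of -0.16 to 0.076 for Anxa2, -0.060 to 0.12 for Anxa7 and -0.13 to 0.38 for Anxa11. Anxa2 was 0.14 without both libraries of conflicting tags and 0.24 with groups by tag. Anxa7 was -0.037 under median-ratio scaling, -0.031 under upper-quartile scaling and -0.0049 with the haematopoietic covariate, which gave -0.0034 for Anxa3 and 0.017 for Anxa5. The median of the annexins was 0.20 without both libraries of conflicting tags and -0.077 to 0.19 when 1 library was left out.

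Counts of called genes moved most with the first replicates. With sample quality weights, which called 56.2% of all genes, 2 annexins were called higher and 2 lower, 1 other annexin lower, 2 partners higher and 6 lower, 7 mineralization genes higher and 6 lower, 3 phosphatidylserine genes higher and 4 lower, and 1 membrane repair gene higher and 7 lower. Without both first replicates, where 55.0% of all genes were called, 2 annexins were called higher and 2 lower, 1 other annexin lower, 2 partners higher and 7 lower, 7 mineralization genes higher and 7 lower, 1 collagen lower, 3 phosphatidylserine genes higher and 4 lower, and 1 membrane repair gene higher and 7 lower. Without both libraries of conflicting tags, 1 other annexin was called lower and 0 partners and 0 membrane repair genes were. When 1 library was left out, called annexins ranged from 0 to 1 in each direction, other annexins lower from 0 to 1, partners from 0 to 2 higher and 0 to 4 lower, mineralization genes from 0 to 3 in each direction, phosphatidylserine genes from 0 to 2 in each direction, and membrane repair genes lower from 0 to 4. The call of Bmp1 was lost without both libraries of conflicting tags (adjusted p = 0.0629), where 1 other mineralization gene was called higher, and also (0 mineralization genes higher) under both scalings, the replicate block, averaging of libraries with a shared name start, groups by tag and the covariate, and 2 were called without a filter. No partner was called lower (0) with the pseudocount of 0.1, no filter, limma-voom, the replicate block, averaging, groups by tag or the covariate. No membrane repair gene was called lower (0) with limma-voom, the replicate block, averaging, groups by tag or the covariate. No phosphatidylserine gene was called higher (0) with averaging, groups by tag or the covariate. The cause was not tested.

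Over all genes tested, 220 were called, against 186 with the pseudocount of 0.1, 133 without a filter, 98 with limma-voom, 5983 with quality weights per sample, 5851 when both first replicates were left out, 298 without the libraries of conflicting tags, 18 with the covariate, 4 with averaging and 0 with groups by tag. Without 1 library, the count was 1602 (CKD replicate 1), 9 (CKD replicate 2), 8 (CKD replicate 3), 1279 (control replicate 1), 7 (control replicate 2) and 6 (control replicate 3). The replicate block called 88 genes and 0 annexins. Same-numbered deviations from the group means correlated at 0.036, -0.031 and 0.109. CKD replicates 1 and 3 correlated best with the control of the same number, and CKD replicate 2 with control replicate 1. With 3 libraries per group, such correlations cannot decide whether the replicate numbers pair the libraries. Depth limits Anxa9 (at most 7 fragments).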

Other observations

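Ratios between annexins, chosen for a look after their values were seen, did not set the family apart. Of the 28 pairs of annexins, the ratio of FPKM did not overlap between groups for 5, against 27.8% of all pairs of tested genes. The tightest was that of Anxa5 to Anxa6, at 1.60, 1.61 and 1.56 in CKD replicates 1, 2 and 3 and 1.52, 1.47 and 1.46 in the controls (1.59 ± 0.0284 and 1.48 ± 0.0344, SD, n = 3 each). The ratio of Anxa1 to Anxa6 was 3.63, 4.39 and 3.70 in CKD and 3.11, 2.64 and 2.45 in control libraries. The first CKD library, close to the controls in Anxa5 and Anxa6 alone, lay with the other CKD libraries in both ratios. The remaining pairs without overlap were Anxa1 to Anxa5 and Anxa4 to Anxa6, higher in CKD, and Anxa2 to Anxa4, lower in CKD. These ratios were not tested.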
